A study of Homo sapiens with 12 samples.

Results

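The genes described here are 9 genes grouped as immediate early genes, a class used to report MAP kinase signalling: EGR1, EGR2, EGR3, IER2, IER3, IER5, SRF, PHLDA1 and PHLDA2. Whether each of them is induced early in these cells was not tested. They were chosen by name, with earlier results of these data known. Each is the line of the count table whose Ensembl identifier carries its symbol, and all 9 were found among the 58735 genes of the table. Messenger RNA was sequenced in 12 libraries of KP4 and MiaPaca2, established cell lines from human pancreatic cancers. The 4 groups, each with 3 libraries, were KP4 with 100 nM trametinib, KP4 with the solvent DMSO, MiaPaca2 with 100 nM trametinib and MiaPaca2 with DMSO, all harvested at 48 h. Trametinib inhibits MEK1 and MEK2, the kinases that activate ERK1 and ERK2. All cells were kept in DMEM with serum, penicillin, streptomycin and HEPES, and poly(A) libraries were made from column-purified RNA. Each line is a single model of its tumour type. The labels do not say whether the 3 libraries of a group came from separate cultures, so the p-values measure only the spread between these libraries, which may be technical.

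Immediate early genes are transcribed soon after a growth signal without new protein synthesis. Serum response factor (SRF) binds the CArG box of their promoters, where ternary complex factors of the ETS family (ELK1, ELK3 and ELK4) join it and are activated by ERK, while its other partners, the actin-sensing MRTFs, direct it to cytoskeletal genes. EGR1, EGR2 and EGR3 encode zinc finger transcription factors that bind GC-rich sites, and their activity is restrained by the corepressors NAB1 and NAB2. IER2, IER3 and IER5 encode regulatory proteins named for their early induction. PHLDA1 and PHLDA2 each contain a pleckstrin homology-like domain.

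RefSeq promoter sequences (build GRCh38.p14) were used for 6 of the 9 genes, in 9 windows of 250 bases that end at a start site. The windows of EGR1, the third of the EGR2 start sites and the first of the SRF start sites are shown because they hold the CArG box, the element through which ERK and SRF act; capitals mark the box. They lie at chr5:138465229-138465478 on the plus strand, chr10:62816367-62816616 on the minus strand and chr6:43171019-43171268 on the plus strand.
EGR1: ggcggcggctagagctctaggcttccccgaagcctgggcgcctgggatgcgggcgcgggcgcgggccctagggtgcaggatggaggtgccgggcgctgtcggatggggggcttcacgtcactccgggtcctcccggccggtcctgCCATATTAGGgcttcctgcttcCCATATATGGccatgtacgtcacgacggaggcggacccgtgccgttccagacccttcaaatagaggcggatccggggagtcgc
EGR2: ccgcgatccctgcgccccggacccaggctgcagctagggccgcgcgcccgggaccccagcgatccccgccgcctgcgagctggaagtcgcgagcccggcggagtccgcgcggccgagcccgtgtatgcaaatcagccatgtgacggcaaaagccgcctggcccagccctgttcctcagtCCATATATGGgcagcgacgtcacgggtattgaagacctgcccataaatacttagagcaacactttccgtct
SRF: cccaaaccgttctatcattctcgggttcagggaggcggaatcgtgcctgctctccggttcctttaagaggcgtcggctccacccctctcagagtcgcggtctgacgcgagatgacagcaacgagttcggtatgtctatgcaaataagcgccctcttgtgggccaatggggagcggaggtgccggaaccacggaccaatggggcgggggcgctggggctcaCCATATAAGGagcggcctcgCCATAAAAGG

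EGR1 had 2 CArG boxes, 105 to 96 and 83 to 74 bases upstream of its start site. SRF also had 2, at 30 to 21 and 10 to 1 bases upstream of its first start site, and EGR2 had 1, at 71 to 62 bases. No such box was found in the windows of IER2, IER5 and PHLDA1, at the other EGR2 start sites or at the second SRF start site. EGR3, IER3 and PHLDA2 had no window in this search, so whether their promoters hold the box was not tested. Only perfect matches within these windows were searched for, so boxes with a mismatch or further upstream may have been missed. Of all 35116 RefSeq windows of the same length, 1.16% held a CArG box and 0.0313% held 2 or more. CCGGAA, a form of the ETS site, was found in 14.5% of all windows on either strand. It occurred once each in IER2, IER5, PHLDA1 and the first SRF window. Other forms of the ETS site were not searched for, so a window without CCGGAA may still hold such a site. TGACG, the core of the cyclic AMP response element (21.2% of all windows), occurred in EGR1, EGR2, IER2 and SRF. The EGR site GCGNGGGCG (8.41% of all windows) occurred once in EGR1 and once in SRF. No 2 of these matches overlapped within a window. A match is a run of letters and does not show that a factor binds there.

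**Figure D1:**
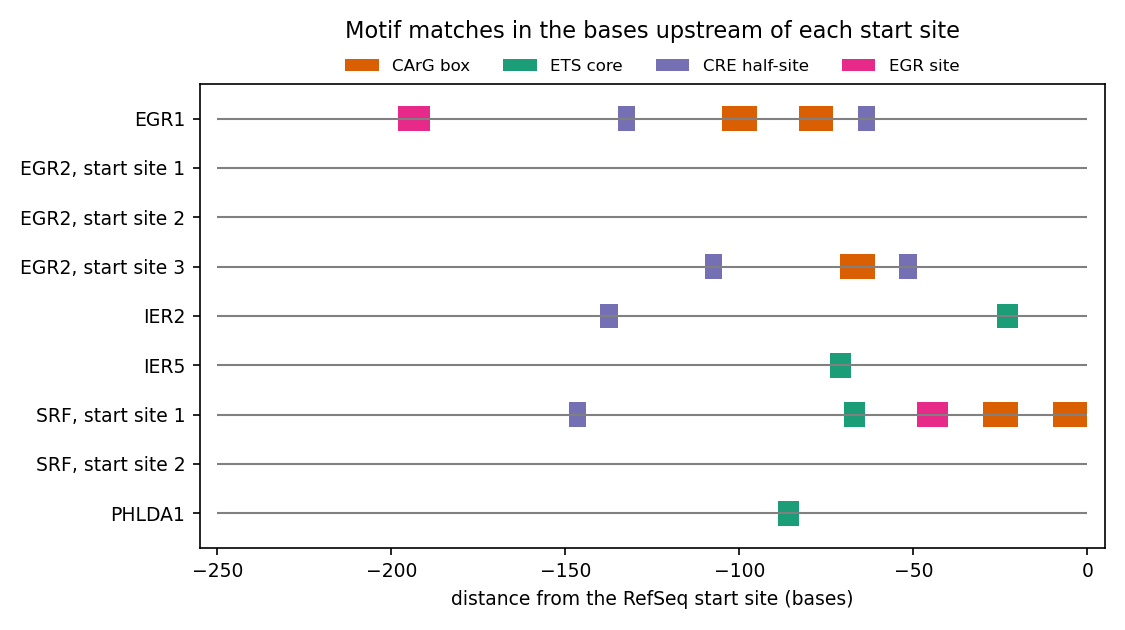
Matches of 4 motifs in the 250 bases upstream of each RefSeq start site of 6 genes (grey lines), drawn as bars at their distance in bases from the start site. CArG boxes (orange) appear in EGR1, the third EGR2 window and the first SRF window only. The label ETS core stands for CCGGAA, the only form of the ETS site searched for. The CRE half-site is TGACG and the EGR site GCGNGGGCG.

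The libraries held 20293688 to 28018129 counts each. Values are given as CPM, counts scaled to a common library total by the TMM method, and tests are edgeR's quasi-likelihood test with adjustment over 16133 tested genes, called below an adjusted p of 0.05. One library stood apart: MiaPaca2 DMSO replicate 2 was set against replicates 1 and 3 of its group by a chi-square test of the counts, whose statistic divided by its degrees of freedom was 14.5 and 13.3, beside 7.70 between replicates 1 and 3 and 2.02 to 2.89 within the other groups. It was the highest of its group for 7 of the 9 genes, and for 34.5% of all tested genes. Of the epithelial markers, KRT8, KRT18 and SOX9 were at 27.0 CPM or more in both lines, and MUC1 was at 7.89 to 116 CPM. KRT19 was at 2.68 to 5.34 CPM in KP4 and 95.9 to 192 CPM in MiaPaca2. The others were low in both lines, with KRT7 at 0.577 to 2.76 CPM, CDH1 at 0.0443 to 5.27 CPM and EPCAM below 1 CPM in each library. VIM, a mesenchymal marker, was at 3081 to 6463 CPM. The 8 epithelial markers summed to 237 to 246 CPM in KP4 trametinib, against 372 to 383 CPM in KP4 DMSO, and to 853 to 861 CPM in MiaPaca2 trametinib, against 1844 to 2218 CPM in MiaPaca2 DMSO. The markers did not move as one: KRT18 and SOX9 were lower with trametinib in both lines, while CDH1 and MUC1 were higher in both, and KRT8 was higher in KP4 (61.3 to 67.7 CPM, against 49.9 to 55.0 CPM with DMSO) and lower in MiaPaca2. The part of these differences in the results below was not tested. Acinar markers (3 genes) were at 0, CD3E was at 0, and the 4 immune markers summed to at most 5.67 CPM. Of the 3 neuroendocrine markers, INS was at 0 and CHGA at most at 0.111 CPM, while SYP was at 12.1 to 23.7 CPM. The fibroblast collagen gene COL1A2 reached 217 CPM in MiaPaca2 trametinib and 119 CPM in MiaPaca2 DMSO, with DCN and LUM below 0.18 CPM in each library. COL1A1, another fibroblast collagen gene, was at 3.84 to 11.7 CPM over all libraries. In bulk RNA, fewer cells that express a gene and less RNA per cell cannot be told apart.

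In KP4 cells, 8 of the 9 genes were lower with trametinib and 0 were higher. The exception was SRF, which did not pass edgeR's test, and 0 genes were higher at an unadjusted p under 0.05 or with DESeq2 and limma-voom as well. EGR1 and EGR3 fell furthest, 25.8-fold and 24.2-fold, and the other 6 fell 1.88-fold to 5.26-fold. Over all tested genes 23.6% were called lower and 23.6% higher in this comparison, and the median log2 fold change was −1.25 for the 9 genes and 0.00 for all tested genes. EGR2 and EGR3 passed the filter on low counts only through DMSO libraries, where they were high, so their counts as lower were favoured by the filter. Without them, 6 of 7 genes were lower.

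In MiaPaca2 cells, 6 genes were lower with trametinib (EGR1, EGR3, IER2, SRF, PHLDA1 and PHLDA2) and 1, IER3, was higher, while EGR2 and IER5 did not pass the test. EGR1 again fell furthest, 19.6-fold, followed by EGR3 at 7.94-fold. The others that fell did so by 1.20-fold to 2.16-fold. Of all tested genes 29.5% were called lower and 34.1% higher, and the median log2 fold change was −0.57 for the 9 genes against 0.05 for all tested genes. Without EGR2 and EGR3, 5 of 7 genes were lower and 1 was higher.

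**Figure D2:**
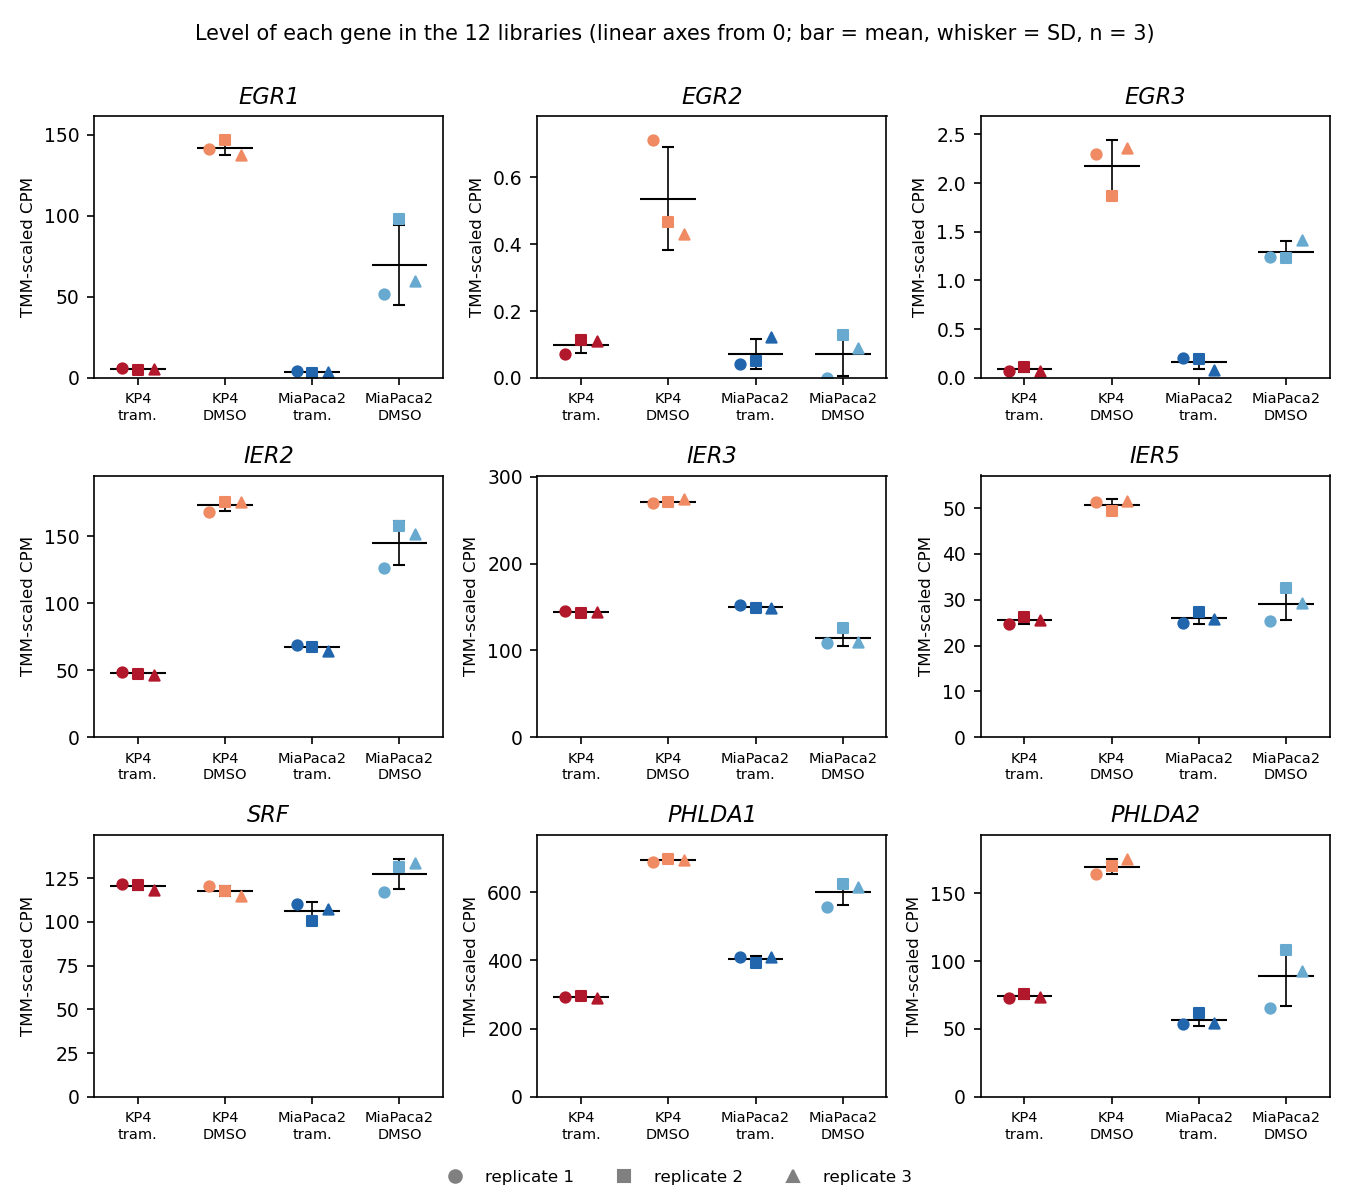
TMM-scaled CPM of the 9 genes in each of the 12 libraries, with trametinib (tram.) and DMSO groups of each line side by side; points are libraries, bars means and whiskers SD (n = 3), and each panel has its own linear axis from 0. EGR1 lies at 3.16 to 5.90 CPM in all 6 trametinib libraries and at 52.0 to 147 CPM in the 6 DMSO libraries, while SRF lies between 100.3 and 133 CPM in all 12.

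EGR1 (ENSG00000120738, chromosome 5, 138465490 to 138469315, GRCh38, plus strand) is the best known of the EGR factors as a direct output of ERK. In KP4 it had 5.90, 4.97 and 5.60 CPM with trametinib, against 141, 147 and 138 CPM with DMSO. All 3 treated libraries lay far below all 3 controls, and the log2 fold change, with its SE, was −4.69 ± 0.26 (edgeR adjusted p = 4.58e-07), which ranked 15 from the lowest of 16133. In MiaPaca2 it had 4.18, 3.16 and 3.26 CPM with trametinib, against 52.0, 97.8 and 59.5 CPM with DMSO. Here too the groups did not overlap, but the controls varied far more among themselves, with a coefficient of variation of 35.3% in MiaPaca2 DMSO beside 3.23% in KP4 DMSO. The log2 fold change of −4.29 ± 0.29 (edgeR adjusted p = 1.05e-06) ranked 20 from the lowest.

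EGR3 (ENSG00000179388, chromosome 8, 22687659 to 22693302, minus strand), which acts in muscle spindle and lymphocyte development, was rare and also fell in both lines. KP4 had 0.0703, 0.112 and 0.0742 CPM with trametinib, which is 7 counts in all, against 2.30, 1.86 and 2.36 CPM and 172 counts with DMSO. These groups were widely separated, at a log2 fold change of −4.60 ± 0.43 (edgeR adjusted p = 1.58e-09) and a ratio of scaled counts of 0.0391 (95% interval 0.0155 to 0.0823, counting error only). MiaPaca2 had 0.203, 0.1975 and 0.0816 CPM with trametinib, 11 counts in all, against 1.24, 1.24 and 1.42 CPM and 91 counts with DMSO. Again no treated library reached a control, at −2.99 ± 0.42 (edgeR adjusted p = 8.75e-07). An overlapping gene on the opposite strand, ENSG00000253125, had at most 5 counts in any library.

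EGR2 (ENSG00000122877, chromosome 10, 62811996 to 62919900, minus strand), best known for its role in hindbrain and Schwann cell development, was the rarest member. In KP4 it had 2, 3 and 3 counts with trametinib, against 18, 12 and 12 counts with DMSO. These do not overlap, and the log2 fold change was −2.40 ± 0.62 (edgeR adjusted p = 0.00245), with a ratio of scaled counts of 0.183 (95% interval 0.0742 to 0.394). In MiaPaca2 it had 1, 1 and 3 counts with trametinib, against 0, 3 and 2 counts with DMSO. At 5 counts in each group no change was detectable at this depth, and the library at 0 allows up to 0.124 CPM.

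IER2 (ENSG00000160888, chromosome 19, 13150415 to 13154908, plus strand), a nuclear protein induced by growth factors, fell in both lines. KP4 had 49.0, 47.5 and 46.8 CPM with trametinib, against 168, 176 and 176 CPM with DMSO. MiaPaca2 had 69.2, 67.8 and 64.6 CPM with trametinib, against 126, 157 and 152 CPM with DMSO. The groups did not overlap in either line, and the treated level was lower in KP4 although its control level was higher. The log2 fold changes were −1.86 ± 0.06 in KP4 and −1.11 ± 0.06 in MiaPaca2 (edgeR adjusted p = 1.20e-17 and 7.60e-14). An antisense gene, ENSG00000267598, shares 946 exon bases with IER2 and had 18 to 78 counts per library, which unstranded counting could not separate; the use of strand is not given in the sources used here.

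IER3 (ENSG00000137331, chromosome 6, 30743199 to 30744554, minus strand) encodes IEX-1, an ERK substrate that takes part in the control of cell death. It moved in opposite directions in the 2 lines. In KP4 it had 146, 143 and 145 CPM with trametinib, against 269.5, 270.2 and 274 CPM with DMSO. In MiaPaca2 it had 152, 149 and 148 CPM with trametinib, against 108, 125 and 110.2 CPM with DMSO. Treated libraries of both lines thus lay within 143 to 152 CPM, while the controls lay above that range in KP4 and below it in MiaPaca2. The log2 fold change was −0.91 ± 0.05 in KP4 and 0.39 ± 0.05 in MiaPaca2 (edgeR adjusted p = 9.30e-15 and 6.40e-08). The antisense gene IER3-AS1 shares 359 exon bases with it and had 7 to 34 counts per library, beside 2487 to 7652 for IER3.

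IER5 (ENSG00000162783, chromosome 1, 181088712 to 181092899, plus strand), known to bind the phosphatase PP2A and to act on heat shock factor HSF1, fell in KP4. There it had 24.8, 26.3 and 25.6 CPM with trametinib, against 51.3, 49.3 and 51.5 CPM with DMSO. All treated libraries were about equal and below all controls, at −0.99 ± 0.07 (edgeR adjusted p = 3.16e-11). In MiaPaca2 it had 24.9, 27.3 and 25.9 CPM with trametinib, against 25.4, 32.6 and 29.4 CPM with DMSO. These groups overlapped, and the log2 fold change of −0.16 ± 0.08 (95% interval −0.33 to −0.00295) had an edgeR adjusted p of 0.0702. That p was 0.00323 without MiaPaca2 DMSO replicate 1 and 0.0316 without KP4 trametinib replicate 1, and ran from 0.00323 to 0.385 over 22 alternatives, of which 5 called it lower.

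PHLDA1 (ENSG00000139289, chromosome 12, 76025447 to 76033932, minus strand), a MAP kinase-induced gene known from work on T cell death and tumour cells, had the most counts of the 9. KP4 had 293, 294 and 289 CPM with trametinib, against 688, 697 and 695 CPM with DMSO. MiaPaca2 had 411, 392 and 409 CPM with trametinib, against 558, 625 and 616 CPM with DMSO. In both lines every treated library was below every control, and the KP4 treated libraries were the lowest of all. The log2 fold changes were −1.25 ± 0.04 in KP4 and −0.57 ± 0.04 in MiaPaca2 (edgeR adjusted p = 6.95e-19 and 1.75e-12). The antisense genes PHLDA1-AS1 and PHLDA1-DT overlap its exons, with 39 to 157 and 3 to 22 counts per library beside 7798 to 19423 for PHLDA1.

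PHLDA2 (ENSG00000181649, chromosome 11, 2928273 to 2929455, minus strand), an imprinted gene known for limiting placental growth, also fell in both lines. KP4 had 72.8, 75.8 and 73.4 CPM with trametinib, against 164, 169.9 and 175 CPM with DMSO. MiaPaca2 had 53.3, 61.9 and 54.5 CPM with trametinib, against 65.6, 108 and 92.6 CPM with DMSO. No treated library overlapped a control, but in MiaPaca2 control replicate 1 lay only just above treated replicate 2. The log2 fold changes were −1.20 ± 0.15 in KP4 and −0.65 ± 0.15 in MiaPaca2 (edgeR adjusted p = 1.06e-04 and 0.00457).

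SRF itself (ENSG00000112658, chromosome 6, 43171299 to 43181507, plus strand) changed little. KP4 had 121.6, 121.3 and 118 CPM with trametinib, against 120.2, 118 and 115 CPM with DMSO. These overlapped, at a log2 fold change of 0.03 ± 0.05 (95% interval −0.07 to 0.13; edgeR adjusted p = 0.622). MiaPaca2 had 110.1, 100.3 and 108 CPM with trametinib, against 117, 131 and 133 CPM with DMSO. All treated libraries were the lower ones there, at −0.26 ± 0.05 (edgeR adjusted p = 5.64e-05), a 1.20-fold change.

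**Figure D3:**
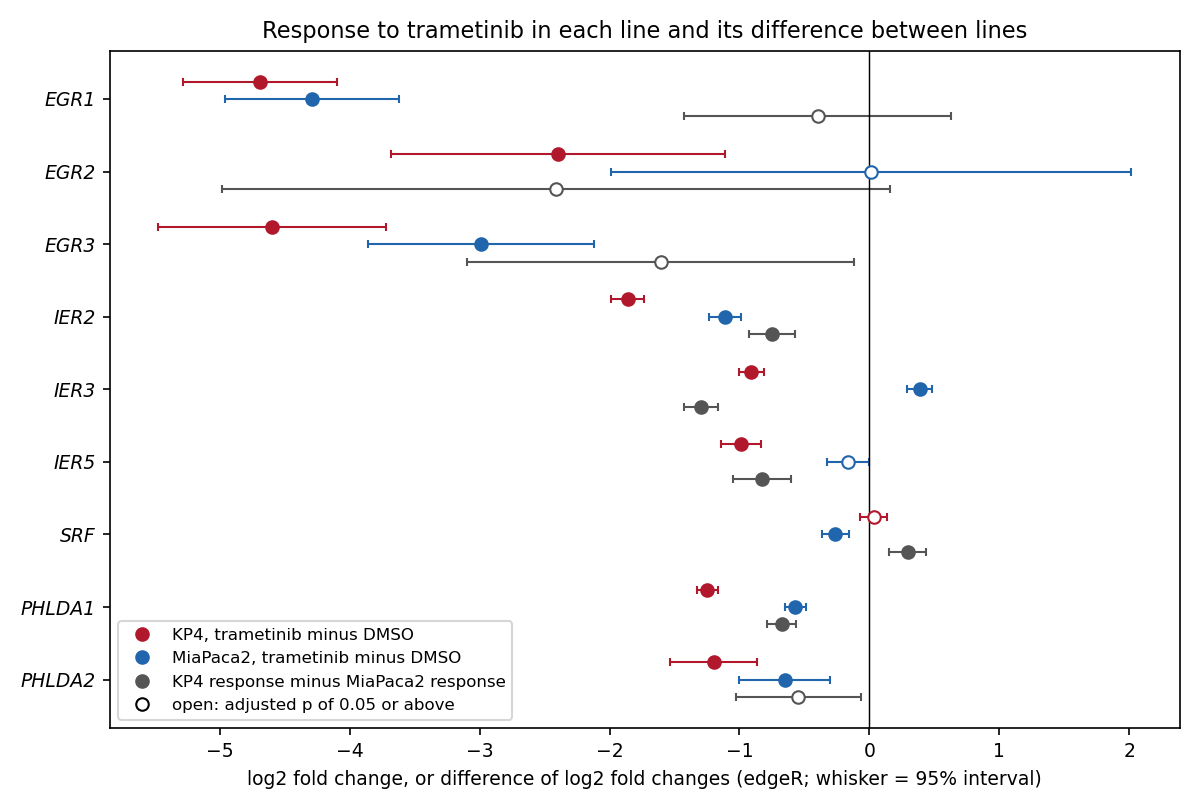
Log2 fold changes of the 9 genes with trametinib in KP4 (red) and MiaPaca2 (blue), and the difference of these responses, KP4 minus MiaPaca2 (grey), on 1 horizontal axis; whiskers are 95% intervals and open points have an edgeR adjusted p of 0.05 or above. IER3 is the gene called in opposite directions, at −0.91 and 0.39, and the EGR2 value in MiaPaca2 rests on 5 counts in each group.

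The responses of the lines were compared directly as the difference of log2 fold changes, KP4 minus MiaPaca2. Of the 9 genes 4 were called lower (IER2, IER3, IER5 and PHLDA1) and 1, SRF, higher, beside 19.9% and 16.2% of all tested genes, and the median difference was −0.75 for the 9 and −0.05 for all tested genes. Among the 5 called genes IER3 differed most, by −1.30 ± 0.07 (edgeR adjusted p = 4.28e-14). IER5 followed at −0.83 ± 0.11, IER2 at −0.75 ± 0.09 and PHLDA1 at −0.68 ± 0.06 (edgeR adjusted p = 1.12e-06, 2.52e-07 and 3.87e-10). SRF differed by 0.30 ± 0.07 (edgeR adjusted p = 0.00162). IER2, IER5 and PHLDA1 thus had the lower fold change in KP4, IER3 fell there and rose in MiaPaca2, and SRF had the lower fold change in MiaPaca2.

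No difference of response was called for the EGR genes and PHLDA2. For EGR1 it was −0.40 ± 0.45 (95% interval −1.42 to 0.63, edgeR adjusted p = 0.546), for EGR2 −2.41 ± 1.25 (−4.98 to 0.16) and for EGR3 −1.61 ± 0.72 (−3.10 to −0.11, edgeR adjusted p = 0.0865). PHLDA2 was at −0.55 ± 0.21 (−1.03 to −0.06, edgeR adjusted p = 0.0761). These intervals leave room for sizeable differences. Without MiaPaca2 DMSO replicate 2, EGR1 differed by −0.72 (edgeR adjusted p = 6.55e-05; range 6.55e-05 to 0.800 over its 21 alternatives, of which no other called it). PHLDA2 differed by −0.71 without that library and by −0.37 without MiaPaca2 DMSO replicate 1 (edgeR adjusted p = 0.00746 and 0.00155; range over 21 alternatives 0.00155 to 0.182), and EGR3 by −1.93 without MiaPaca2 trametinib replicate 3 (0.0482; range 0.0482 to 0.224).

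Between the untreated lines, 8 of the 9 genes were higher in KP4 DMSO than in MiaPaca2 DMSO and 1, SRF, was lower, beside 31.9% and 31.1% of all tested genes. This comparison uses the same control libraries as the responses above, so its values are set beside them without a relation being drawn. Since EGR2 passed the filter only through KP4 DMSO, its call here was favoured by the filter, and without EGR2 and EGR3 6 of 7 genes were higher and 1 lower. EGR2 had 42 counts in KP4 against 5 in MiaPaca2, a ratio of scaled counts of 7.48 (95% interval 2.96 to 24.2) and a log2 fold change of 2.82 ± 0.69 (edgeR adjusted p = 8.79e-04). IER3 was at 1.24 ± 0.05, EGR1 at 1.03 ± 0.20, PHLDA2 at 0.94 ± 0.15 and IER5 at 0.80 ± 0.07, all past edgeR's test. IER2 (0.26 ± 0.06) and PHLDA1 (0.21 ± 0.04) differed least among the higher ones. For EGR3 the value was 0.75 ± 0.29 (edgeR adjusted p = 0.0257), and the call was lost in 6 of 22 alternatives: without KP4 DMSO replicate 1 or 3, without MiaPaca2 DMSO replicate 1 or 2, with no filter and with DESeq2 (adjusted p 0.0504 to 0.0907). SRF was at −0.11 ± 0.05 (edgeR adjusted p = 0.0482) with overlapping libraries, and 15 of 22 alternatives did not call it (adjusted p 0.00140 to 0.187 over all). Among these 15 were the fits without any of the KP4 DMSO replicates, without KP4 trametinib replicate 2 or 3, without MiaPaca2 DMSO replicate 2 or 3 and without MiaPaca2 trametinib replicate 1 or 3 (−0.13 to −0.08).

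KP4 trametinib was lower than MiaPaca2 trametinib for 2 of the 9 genes, IER2 (−0.49 ± 0.06) and PHLDA1 (−0.47 ± 0.04), and higher for 1, SRF (0.18 ± 0.05), beside 29.2% and 26.0% of all tested genes. IER3 and IER5 were at −0.05 ± 0.05 (95% interval −0.15 to 0.04) and −0.02 ± 0.08 (−0.19 to 0.14). EGR1 had 5.49 ± 0.476 CPM in KP4 and 3.54 ± 0.563 CPM in MiaPaca2 (mean ± SD, n = 3), groups that do not overlap, at a log2 fold change of 0.63 ± 0.39 (edgeR adjusted p = 0.215). It was called without MiaPaca2 DMSO replicate 2, at 0.63 (adjusted p = 3.51e-05), with only the libraries compared and with DESeq2 (range over 22 alternatives 3.51e-05 to 0.424). PHLDA2 was at 0.39 ± 0.15 (edgeR adjusted p = 0.0582), and 9 of 22 alternatives called it, 2 of them without MiaPaca2 DMSO replicate 1 or 2 (range 7.14e-11 to 0.146).

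Levels of different genes were compared as CPM per kilobase of merged exons. In KP4 DMSO the order was IER3 (200.01 ± 1.73), PHLDA2 (178 ± 5.98), PHLDA1 (85.9 ± 0.600), IER2 (56.4 ± 1.46), EGR1 (45.3 ± 1.46), SRF (27.98 ± 0.627), IER5 (12.1 ± 0.291), EGR3 (0.448 ± 0.0557) and EGR2 (0.145 ± 0.0418), and no neighbours in it overlapped. In KP4 trametinib IER3 was again first at 107 ± 0.911 CPM per kilobase, but SRF (28.6 ± 0.476) stood above IER2 (15.5 ± 0.361), and EGR1, at 1.75 ± 0.152, had dropped below IER5 (6.10 ± 0.183). EGR2 and EGR3 overlapped at the bottom. MiaPaca2 trametinib had the same order down to EGR1 (1.13 ± 0.180 CPM per kilobase), led by IER3 at 111 ± 1.52. In MiaPaca2 DMSO PHLDA2 (93.0 ± 22.6) and IER3 (84.5 ± 7.02) overlapped at the top, as did SRF (30.3 ± 2.08) and EGR1 (22.2 ± 7.84) further down.

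The genes whose level followed each member most closely were found by Pearson's r of log2 CPM over all 12 libraries. These libraries fall into 4 groups, so r mostly reflects the 4 group means and is given as a description. EGR1 was followed by PXN (r = 0.996) and STC1 (0.995), EGR3 by BCL10 (0.992) and GPR3 (0.988), and EGR2 by CARD19 (0.962) and MIDN (0.949). IER2 was followed by STK40 (0.995) and PLAUR (0.993), and PHLDA1 by CD276 (0.996) and STK40 (0.995). For IER3 the closest were CD9 (0.982) and SMAD7 (0.981), for IER5 ITGB5 (0.989) and CMSS1 (0.988), and for PHLDA2 FIBCD1 (0.994) and BAG6 (0.991). SRF, which moved little, was followed by TMEM147 (0.946) and DHX37 (0.946).

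Close relatives of the 9 genes and the EGR corepressors moved in mixed directions. In KP4 3 of 6 fell and 1 rose, beside 23.6% lower and 23.6% higher of all tested genes, and WT1, without a count there, could not be called. EGR4, the fourth EGR factor, was at −4.02 ± 0.71, IER5L at −0.78 ± 0.10 and the corepressor NAB2 at −0.46 ± 0.07, while PHLDA3, a p53 target that restrains AKT, rose by 1.11 ± 0.16. In MiaPaca2 5 of 6 fell and 1 rose, beside 29.5% lower and 34.1% higher of all tested genes. WT1, a zinc finger factor with a GC-rich site like that of EGR1, was at −2.45 ± 0.43, EGR4 at −1.67 ± 0.69 and NAB1 at −0.39 ± 0.08, and NAB2 rose by 0.38 ± 0.07 (edgeR adjusted p = 0.0381 for EGR4, lost without MiaPaca2 DMSO replicate 2 or 3 or trametinib replicate 1 or 3, with log2 fold changes of −1.88 to −1.07; adjusted p 0.0171 to 0.179 over 20 alternatives). The responses of the lines differed for PHLDA3 by 2.62 ± 0.22 and for NAB2 by −0.84 ± 0.10 (edgeR adjusted p = 6.38e-10 and 2.65e-07). WT1 had 0 counts in all KP4 libraries, which allows up to 0.0365 CPM in KP4 trametinib and 0.0380 CPM in KP4 DMSO. Whether EGR4 and WT1 passed the filter on low counts only through DMSO libraries was not examined. Their counts as lower may therefore have been favoured by the filter, as for EGR2 and EGR3.

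Among the SRF cofactors, the ternary complex factor gene ELK3 fell in both lines, to 80.2 ± 3.10 CPM in KP4 trametinib, against 222 ± 3.70 CPM in KP4 DMSO, and to 61.0 ± 3.47 CPM in MiaPaca2 trametinib, against 145 ± 8.51 CPM in MiaPaca2 DMSO. Its log2 fold changes were −1.47 ± 0.05 and −1.25 ± 0.05 (edgeR adjusted p = 2.55e-18 and 5.24e-17). ELK1 was at −0.34 ± 0.04 in KP4 and −0.14 ± 0.05 in MiaPaca2, both past the test. The actin-regulated coactivator genes MRTFA and MRTFB rose in MiaPaca2, by 0.91 ± 0.06 and 0.51 ± 0.06, and were at 0.13 ± 0.06 and 0.12 ± 0.05 in KP4 (edgeR adjusted p = 0.102 and 0.0686); their responses differed by −0.78 ± 0.09 and −0.39 ± 0.08, both called lower. In all, 2 of 5 tested cofactors fell and 0 rose in KP4, and 3 fell and 2 rose in MiaPaca2, beside 23.6% lower and 23.6% higher of all tested genes in KP4 and 29.5% lower and 34.1% higher in MiaPaca2; with 5 genes nothing is read from these shares. At an unadjusted p under 0.05 the count of 0 by edgeR was 1, with DESeq2 it was 1, and without MiaPaca2 DMSO replicate 1 it was 2. MYOCD, with at most 22 counts in a group, was not tested.

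Of 20 cytoskeletal genes that SRF controls with the MRTFs, 12 rose and 2 fell in KP4 (median log2 fold change 0.31), beside 23.6% lower and 23.6% higher of all tested genes. In MiaPaca2 9 rose and 6 fell (median 0.23), which is near the share of all tested genes there, 29.5% lower and 34.1% higher. The smooth muscle calponin gene CNN1 rose by 1.54 ± 0.37 in KP4 and by 2.47 ± 0.45 in MiaPaca2. The tropomyosin gene TPM1 rose by 1.97 ± 0.07 in MiaPaca2, and the myosin light chain gene MYL9 by 1.44 ± 0.45 in KP4, where it had 1.18 ± 0.218 CPM with trametinib, against 0.427 ± 0.240 CPM with DMSO. That MYL9 call (edgeR adjusted p = 0.0155) was lost without KP4 trametinib replicate 1, with limma-voom and with edgeR's newer method (log2 fold changes of 1.31 to 1.59; adjusted p 1.57e-06 to 0.117 over 22 alternatives). The LIM domain genes FHL1 and FHL2 fell in both lines. FHL1 was at −1.18 ± 0.10 in KP4 and −0.57 ± 0.12 in MiaPaca2. FHL2 had 72.6 ± 2.85 CPM in KP4 trametinib, against 145 ± 5.28 CPM in KP4 DMSO, and was at −1.13 ± 0.07 in MiaPaca2.

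Of 36 other immediate early genes 20 fell and 9 rose in KP4 (median −0.36), whereas 8 fell and 22 rose in MiaPaca2 (median 0.56). Of all tested genes 23.6% were called lower and 23.6% higher in KP4, and 29.5% lower and 34.1% higher in MiaPaca2, so the rises in KP4 and the falls in MiaPaca2 were near or below those shares. The test of the difference of responses, KP4 minus MiaPaca2, called 25 of 36 lower and 2 higher, beside 19.9% and 16.2% of all tested genes. FOS, the AP-1 subunit gene that is the textbook SRF target, fell in KP4 (0.622 ± 0.0540 CPM with trametinib, against 6.28 ± 0.642 with DMSO; −3.33 ± 0.21). DUSP5, an ERK phosphatase gene, fell there by 2.30 on the log2 scale, while RHOB (3.01 ± 0.06) and KLF2 (2.44 ± 0.21) rose. In MiaPaca2 BTG2, an antiproliferative gene, rose by 3.28 ± 0.09 and RHOB by 3.13 ± 0.06, and FOSL1 and MYC fell (−1.41 ± 0.06 and −1.05 ± 0.05). The responses of the lines differed by −3.94 ± 0.28 for FOS, −2.46 ± 0.15 for BTG2, 2.95 ± 0.27 for KLF2 and 0.50 ± 0.07 for MYC, each past edgeR's test. For FOS and KLF2 the difference was larger than the KP4 value itself. The log2 fold change in MiaPaca2 was thus positive for FOS and negative for KLF2, opposite to KP4.

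Genes that report ERK activity fell in 8 of 9 cases in each line, beside 23.6% of all tested genes in KP4 and 29.5% in MiaPaca2, with EPHA4 not past the test in KP4 and higher in MiaPaca2 (1.11 ± 0.07). Their median log2 fold change was −4.39 in KP4 and −4.13 in MiaPaca2, beside −4.69 and −4.29 for EGR1. ETV4, at −6.84 ± 0.12 in KP4 and −6.72 ± 0.14 in MiaPaca2, was the lowest of them in both lines, followed by DUSP6 (−6.63 ± 0.31) in KP4 and SPRY4 (−6.03 ± 0.08) in MiaPaca2. CCND1 and EPHA2, at −1.63 ± 0.05 and −1.93 ± 0.06, fell least of the 8 in KP4, as did CCND1 in MiaPaca2 (−0.58 ± 0.05).

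**Figure D4:**
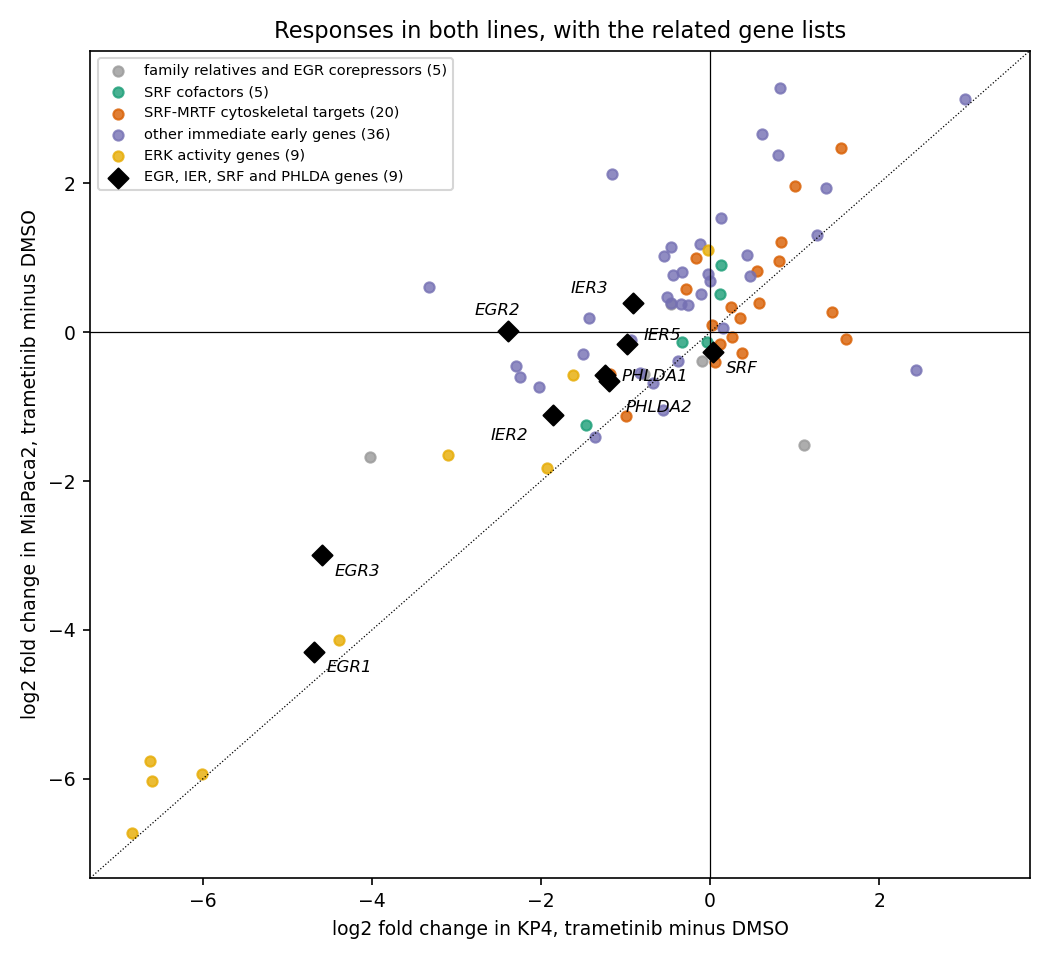
Log2 fold change with trametinib in KP4 (horizontal axis) and MiaPaca2 (vertical axis) for the 9 genes (black diamonds) and 5 lists of related genes (circles; the number drawn is in brackets, and WT1 is left out because KP4 had no counts); the dotted line marks equal values. EGR1 and EGR3 lie among the ERK activity genes at the lower left, SRF lies near 0 among the cytoskeletal genes, and many other immediate early genes lie above the line.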

How the data were processed

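Poly(A) RNA of 12 libraries was sequenced, and the authors deposited raw counts per gene for 58735 Ensembl genes. STAR, DESeq2 and GRCh38 (hg38) are named per the submitters' processing notes; for the counting program, the annotation and strand the entry is: not given in the sources used here. All identifiers were matched to GENCODE 29 for symbols and exon lengths. Genes were kept by edgeR's filterByExpr (16133 genes), scaled by TMM and tested with edgeR 4.0.16 (R 4.3.3; robust quasi-likelihood fit, 1 mean per group over all 12 libraries), with Benjamini-Hochberg adjustment over all tested genes. Libraries held 20293688 to 28018129 counts. Intervals of log2 fold changes and of their differences come from the quasi-likelihood fit and include the spread between libraries. Intervals of ratios of scaled counts, and floors, cover counting error only, and a floor is 3 counts. The code was tested on simulated counts. From each list the 2 highest and 2 lowest log2 fold changes past the test in each line are named, and for each member the 2 genes of highest Pearson's r. Alternatives were other scaling (RLE, library size only), no filter or a filter of 1 CPM in 3 libraries, DESeq2 1.42.0, limma-voom (limma 3.58.1), no robust shrinkage, only the libraries compared, the replicate block, leaving out each library and, chosen after seeing the data, edgeR's newer quasi-likelihood method. Same-numbered libraries of different groups deviated from their group means with correlations of −0.0238 to 0.0326, which gives no sign of pairing by number. This cannot exclude pairing, which the labels do not settle. The members and lists were chosen with earlier results of these data known.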

Additional observations from a re-analysis of the deposited data

Results flagged for a closer look

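The response to trametinib differed between the lines, by the direct edgeR test of the difference of log2 fold changes (KP4 minus MiaPaca2), for 5 of the 9 genes. The difference was −1.30 for IER3, which fell in 3 of 3 KP4 libraries and rose in 3 of 3 MiaPaca2 libraries relative to every DMSO library of the same line. For IER5 it was −0.83, for IER2 −0.75 and for PHLDA1 −0.68. For SRF it was 0.30, with overlapping groups in KP4 and separate ones in MiaPaca2.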

How the results depend on the processing

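Of 973 fold changes of the 9 genes under an alternative, 921 kept their direction and side of the threshold; the cause of the other changes was not tested. The numbers of genes called lower and higher with trametinib ran from 7 to 8 and stayed at 0 in KP4, from 6 to 7 and at 1 in MiaPaca2, and from 4 to 6 and at 1 for the difference. The single gene lower in KP4 DMSO than in MiaPaca2 DMSO, SRF, became 0 with library size only, no filter, limma-voom, no robust shrinkage, only the libraries compared and the replicate block, and ran from 0 to 1 when 1 library was left out. Between the trametinib groups 3 of the 9 genes were called, and 5 of 9 with DESeq2 and with only the libraries compared, and 3 to 5 without 1 library. The 1 gene higher in KP4 trametinib became 2 with the strict filter, RLE scaling, no robust shrinkage, library size only and the replicate block, 3 with DESeq2 and with only the libraries compared, and ran from 1 to 3 without 1 library, at 3 without MiaPaca2 DMSO replicate 2. SRF cofactors higher in KP4, 0 in all, became 1 with DESeq2, the strict filter, library size only and RLE scaling, 2 with only the libraries compared, and 0 to 2 without 1 library; the 2 cytoskeletal genes lower in KP4 became 4 with only the libraries compared. Direction turned in 3 values that were not called. EGR2 in MiaPaca2, with 5 counts a group, was at −0.015 with RLE scaling, −0.0064 with no filter, −0.025 with DESeq2 and −0.62 to 0.68 without 1 library. IER5 between the trametinib groups ran from −0.056 to 0.038, and EPHA4 in KP4 from −0.13 to 0.077, without 1 library. EGR2 had no value under the strict filter. Apart from the counts above, the replicate block changed 1 further call, PHLDA2 in the difference of responses (−0.56, adjusted p = 0.0237). Depth limits EGR2 and EGR3 most, with 12 to 66 counts a library at their highest in KP4 DMSO.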
